A study of Homo sapiens with 2 samples.

Results

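SDK1, PTPRN2, DLG2, ABTB2 and MAD1L1 held more peak summits than any other protein-coding gene in a TCF4 peak map of sphere-grown CAL-27 cells. The 5 genes were chosen by that count, the number of summits between the low and the high end of each gene's RefSeq record, out of 20037 protein-coding records. Their records held 29, 23, 20, 17 and 17 summits, 106 of the 26642 in the map. The choice fixed these counts, so they are given as a description with no test. Just below the choice, 4 genes held 16 summits each. Over all kinds of gene record the order differed, since the immunoglobulin heavy chain locus IGH held 32 and the pseudogene record LOC102723945 held 19. The name of the group is therefore true of protein-coding genes, not of all records. At least 1 summit lay inside 38.8% of protein-coding records.

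CAL-27 cells are a cultured human line of squamous carcinoma of the tongue. The series holds 1 library made with a TCF4 antibody, whose peak list is described here, and 1 made with IgG, both from CAL-27 spheres. The IgG library was not analysed here, so peaks that would also appear without the TCF4 antibody were not set apart. No value has a replicate check, and intervals cover counting error only. TCF4 can stand for the E protein of that name, which binds E-box sites, or for TCF7L2, a partner of beta-catenin. The labels do not say which of these proteins the antibody recognises.

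The genes differ in what they encode. Their NCBI Gene numbers are 221935 for SDK1, 5799 for PTPRN2, 1740 for DLG2, 25841 for ABTB2 and 8379 for MAD1L1. SDK1 is a cell adhesion molecule of the immunoglobulin superfamily, best known for guiding synaptic layers in the vertebrate retina. PTPRN2 is a phosphatase-like membrane protein of secretory granules in neuroendocrine cells. DLG2 is a scaffold protein of the postsynaptic density. ABTB2 carries ankyrin repeats and BTB domains. MAD1L1 anchors MAD2 at kinetochores in the spindle assembly checkpoint, which holds cells in mitosis until chromosomes are attached. Transcription factors can bind inside genes as well as at their starts, and a long gene offers more room for such sites.

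On the build hg38, 3 of the 5 genes lie on chromosome 7 and 2 on chromosome 11. SDK1 covers chr7:3301252-4269000 and is read from its low-coordinate end. MAD1L1 covers chr7:1815795-2232945, on the same end of the chromosome, and PTPRN2 covers chr7:157539056-158587823 near the other end. DLG2 covers chr11:83455012-85628373 and ABTB2 covers chr11:34150987-34358010. DLG2, ABTB2 and MAD1L1 are read from their high-coordinate ends. Of the 20 protein-coding records with the most summits, 6 lay on chromosome 7 and 3 on chromosome 11. Per 100 kb, up to the last gene record, chromosome 7 held 1.34 summits and chromosome 11 held 1.26, the fifth and sixth highest among 24 chromosomes.

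Set against length, the counts were very different. Per 100 kb of record, ABTB2 held 8.21 summits (95% exact Poisson interval 4.78 to 13.1), MAD1L1 4.08 (2.37 to 6.52), SDK1 3.0 (2.01 to 4.30), PTPRN2 2.19 (1.39 to 3.29) and DLG2 0.920 (0.562 to 1.42). All protein-coding records together held 1.07 summits per 100 kb of covered sequence. DLG2, a record of 2173 kb, thus lay below that average, and the average lay within its interval. The 5 genes were chosen by the counts behind these intervals, so the intervals are no test. Among the 1399 protein-coding records of at least 200 kb, ABTB2 ranked 1 by density, MAD1L1 11, SDK1 22, PTPRN2 64 and DLG2 287. The median such record held 1 summit and the upper quartile was 3, while 501 held none. Some records under 200 kb, left out of this ranking, were denser than ABTB2. TTC34 held 9.71 summits per 100 kb, TXNRD1 11.9 and RRP12 33.3.

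Genes of like length, from 0.8 to 1.25 times that of each gene, had low median counts, though some came close to the 5 genes. The median was 3 summits for the 11 records like DLG2, of which PCDH15 held the most at 6. It was 1.5 for the 94 records like SDK1, where PTPRN2 with 23 and then PDE1C with 16 held the most. It was 1 for the 80 like PTPRN2, where SDK1 with 29 held more than PTPRN2 itself, and RANBP2 followed with 14. It was also 1 for the 831 like ABTB2, with a highest count of 14 in VEPH1. For the 366 records like MAD1L1 the median was again 1, and RPTOR came closest with 16.

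**Figure D1:**
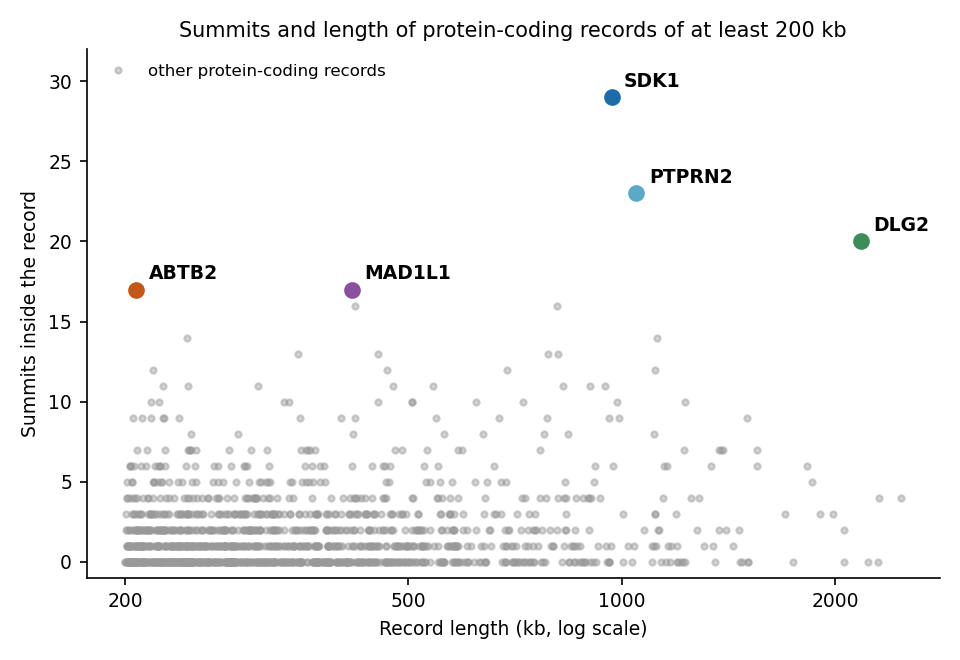
Summits inside each protein-coding record of at least 200 kb (vertical axis) against record length in kb (horizontal axis, log scale), with the 5 genes in colour and the other records in grey. ABTB2 reached 17 summits in 207 kb, whereas DLG2 held 20 in 2173 kb.

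Over windows of up to 1 Mb on each side, the surroundings of 4 of the 5 genes were richer in summits than the genes themselves. In the 1 Mb below and the 1 Mb above ABTB2 there were 1.9 and 5.1 summits per 100 kb, both under the 8.21 within it. The intervals of the gene and its upper side overlapped (4.78 to 13.1 and 3.80 to 6.71). MAD1L1 held 4.08, against 10 per 100 kb below it and 4.9 above it. SDK1 held 3.0, against 4.6 and 4.1. PTPRN2 held 2.19, against 2.8 and 3.24, and DLG2 held 0.920, against 1.3 on each side. Apart from MAD1L1 and its lower side (2.37 to 6.52 and 8.14 to 12.2), the intervals of these 4 genes and their sides overlapped. Since the genes were chosen by their counts, overlap of these intervals or its absence is no test. The window above PTPRN2 covers 648 kb, up to the last gene record of the chromosome. The window above MAD1L1 and the window below SDK1 share most of their length. These windows were chosen after values had been seen. Against these windows, ABTB2 was the single gene of the 5 whose density exceeded that of both sides. Against the 100 kb flanks it was not, since its upper flank held 9 summits per 100 kb, above the 8.21 inside. PTPRN2, with 2.19, exceeded both of its 100 kb flanks, with 2 below and 0 above.

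Pooled, the 106 summits inside the genes had lower folds than those inside other protein-coding genes, but the 5 genes were not alike. The authors' fold enrichment, the fragments at the summit plus 1 over the caller's local background plus 1, had a median of 4.52 in the 5 genes (quartiles 3.99 and 5.28). The 13351 summits inside other protein-coding records had a median of 4.94 (quartiles 4.23 and 6.10). A −log10 q of at least 5 was reached by 23 of the 106 summits (21.7%), against 37.9% inside other genes and 41.2% of all peaks. The 23 were spread unevenly, with 9 of 17 in ABTB2, 5 of 29 in SDK1, 5 of 23 in PTPRN2, 4 of 17 in MAD1L1 and 0 of 20 in DLG2. The share in ABTB2, 52.9%, was above that inside other genes, and the median fold of PTPRN2, 5.0, was slightly above theirs. Peaks of 1 library are no replicates, so these shares were not tested.

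Local background separated ABTB2 and MAD1L1 from the other 3 genes. The background at a summit, in fragments, had a median of 3.44 in ABTB2 (range 1.87 to 9.41) and 2.82 in MAD1L1 (0.579 to 4.63). It was 1.03 in PTPRN2 (0.476 to 1.74), 0.898 in SDK1 (0.520 to 2.21) and 0.626 in DLG2 (0.475 to 1.11). Summits inside other protein-coding genes had a median of 1.03. A background of at least 2 was found at 15 of 17 summits in ABTB2, 14 of 17 in MAD1L1, 1 of 29 in SDK1 and at none in PTPRN2 or DLG2. Over the rest of chromosome 11 outside ABTB2 the median was 1.25, and over the rest of chromosome 7 outside MAD1L1 it was 0.996. Close to MAD1L1 it was high as well, at 3.88 in the 1 Mb below the gene and 2.36 in the 1 Mb above it. Close to ABTB2 it was 0.952 below and 1.94 above, both under the median inside the gene. The part of background in the counts of these genes was not tested.

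Fragment counts followed the background, in part by construction. A peak over a higher background needs more fragments to be called, and both values were solved from the same fold and p. Summits of ABTB2 rested on 10 to 41 fragments with a median of 21, and those of MAD1L1 on 6 to 28 with a median of 15. Summits of PTPRN2 rested on 6 to 19 fragments with a median of 8, those of SDK1 on 5 to 15 with a median of 8, and those of DLG2 on 5 to 9 with a median of 7. With 7 fragments, counting error alone spans 2.81 to 14.4, a range that holds every count in DLG2. All 20 summits of DLG2 had under 10 fragments, as had 23 of 29 in SDK1 and 14 of 23 in PTPRN2. The order of the median folds differed from that of the median fragment counts. The median fold was 5.0 in PTPRN2, 4.67 in DLG2, 4.49 in SDK1, 4.32 in ABTB2 and 3.93 in MAD1L1. Within ABTB2 and PTPRN2, the highest folds, 9.73 and 8.07, stood on the most fragments, 41 and 19.

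**Figure D2:**
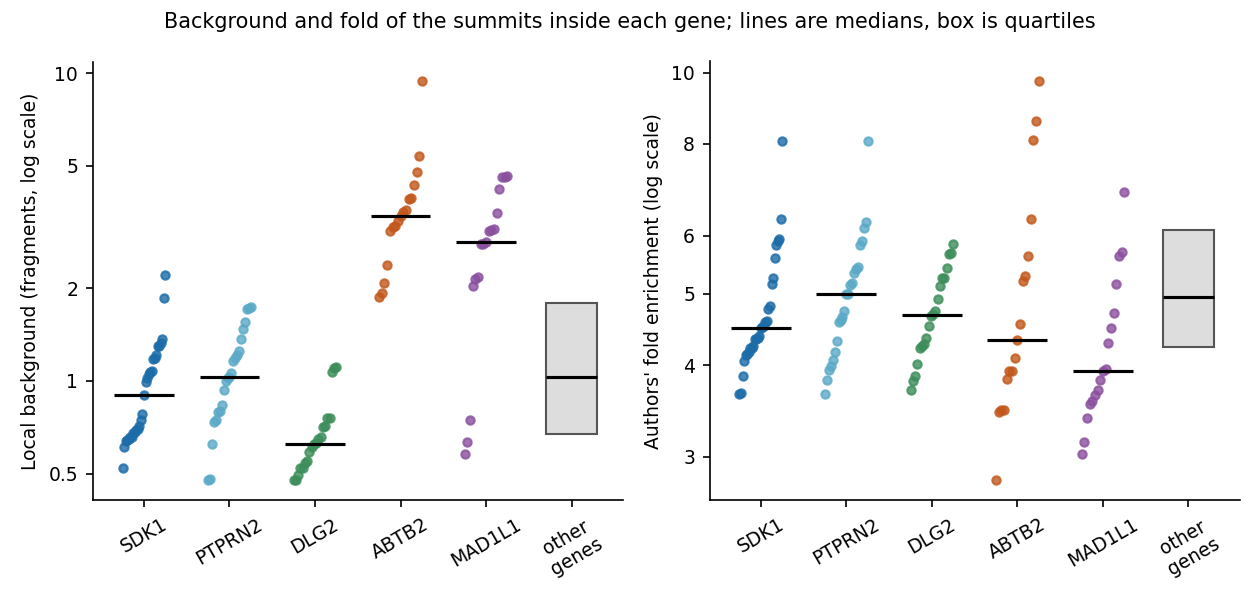
Local background in fragments (left) and the authors' fold (right), both on log axes, for each summit inside the 5 genes (points, medians as lines) and for summits inside other protein-coding genes (box, quartiles with the median). Backgrounds of ABTB2 and MAD1L1 lie mostly above 2, while their median folds of 4.32 and 3.93 are the lowest of the 5.

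SDK1 carried its summits mainly beyond its midpoint. Between the start of the gene and the midpoint lay 9 summits, and 20 lay between the midpoint and the far end. The densest 100 kb ran from 655 to 751 kb after the start and held 8, with folds from 4.35 to 5.91. An overlapping stretch from 663 to 756 kb held as many. The strongest summit stood apart from these stretches, 48.3 kb after the start, with a fold of 8.08 on 12 fragments (chr7:3349450-3349599). A fold of 6.32 followed at 563 kb on 11 fragments and one of 5.94 at 227 kb on 11 fragments. The lowest fold was 3.65, on 5 fragments. It belonged to the closest neighbours in any of the 5 genes, 271 bp apart at about 480 kb, and summits this close share fragments of their local background. The widest stretch of SDK1 without a summit was 129 kb, and the median gap was 22.8 kb.

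PTPRN2 had 3 long stretches without a summit, all in the part of the record before 619 kb. Near the low-coordinate end, 5 summits lay between 6.21 and 82.1 kb, with folds from 4.17 to 6.14. Between 82.1 and 619 kb from that end lay 3 gaps of 154, 153 and 150 kb, each holding no summit. Beyond 619 kb the widest gap was 69.6 kb. From the low-coordinate end to the midpoint there were 10 summits, and 13 beyond it. The strongest of them, at 893 kb from the low-coordinate end (chr7:158432075-158432343), had a fold of 8.07 on 19 fragments. It was the only summit of PTPRN2 with a −log10 q of at least 10 (11.6). Folds of 6.26 on 15 fragments at 821 kb and 6.14 on 10 fragments at 41.5 kb came next. The lowest was 3.66 on 7 fragments. No summits in this gene lay closer together than 5700 bp, and the median gap was 35.2 kb. The 7 records nested in PTPRN2 held no summit.

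DLG2 carried widely spaced summits, and none reached a −log10 q of 5. Folds ran from 3.70 to 5.84, and the 3 highest were 5.84, 5.68 and 5.66 on 8, 9 and 8 fragments. Of its 19 gaps, 9 were over 100 kb, and the widest, 283 kb, lay between 983 and 1265 kb from the low-coordinate end. The median gap was 98.2 kb. Toward the start of the gene, at the high-coordinate end, 13 summits lay before the midpoint and 7 after it. Close neighbours were found at 426 and 542 bp. The densest 100 kb held 5 summits, between 91.7 and 146 kb after the start.

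ABTB2 carried the strongest summits of the 5 genes. The highest fold was 9.73 on 41 fragments, 124 kb after the start (chr11:34234085-34234542), with a −log10 q of 26.0. Folds of 8.59 on 38 fragments and 8.11 on 33 fragments followed at 107 and 83.1 kb after the start, so that the 3 strongest lay between 83.1 and 124 kb after the start. A weak summit can stand beside a strong one: 1275 bp from the fold of 8.59 lay a summit with a fold of 3.48. The lowest fold, 2.79, rested on 28 fragments over a background of 9.41, the highest background in the 5 genes. Gaps were short, from 1275 bp to 35.5 kb with a median of 10.3 kb. The peaks covered 1.92% of the ABTB2 record, against 0.726% of MAD1L1, 0.560% of SDK1, 0.407% of PTPRN2 and 0.155% of DLG2.

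MAD1L1 combined many fragments with low folds. The highest fold, 6.87, stood on 11 fragments 10.1 kb from the low-coordinate end, where the background was 0.746 (chr7:1825825-1825967). A fold of 5.70 on 8 fragments lay 50.2 kb after the start, over a background of 0.579, and one of 5.62 on 22 fragments lay 7.41 kb after the start. The lowest fold, 3.03, rested on 16 fragments over a background of 4.61. It belonged to a row of 3 summits 962 and 747 bp apart, at 123 to 125 kb from the low-coordinate end, whose strongest member had 28 fragments. The widest gap was 78.2 kb and the median gap 14.8 kb.

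**Figure D3:**
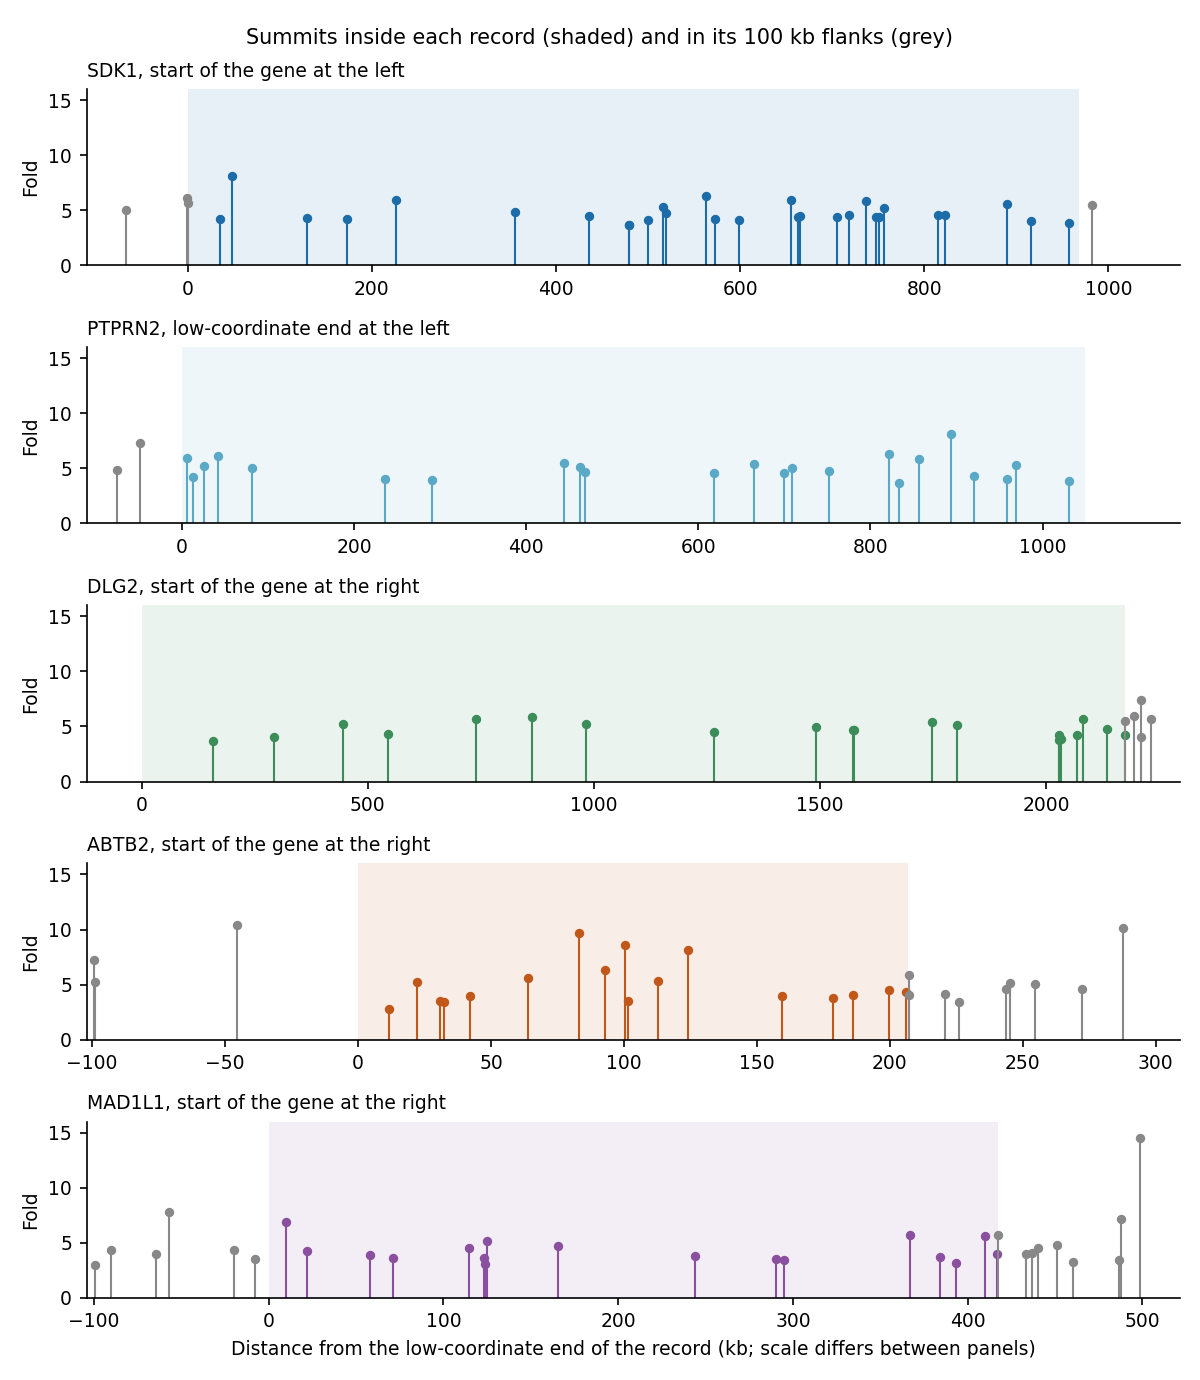
Fold of each summit (vertical axis) against its distance in kb from the low-coordinate end of the record (horizontal axis, own scale per panel), with the record shaded and summits of the 100 kb flanks in grey. Folds inside DLG2 stay at or under 5.84, ABTB2 reaches 9.73, and the peak at the right edge of the MAD1L1 panel has a fold of 14.5.

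**Figure D4:**
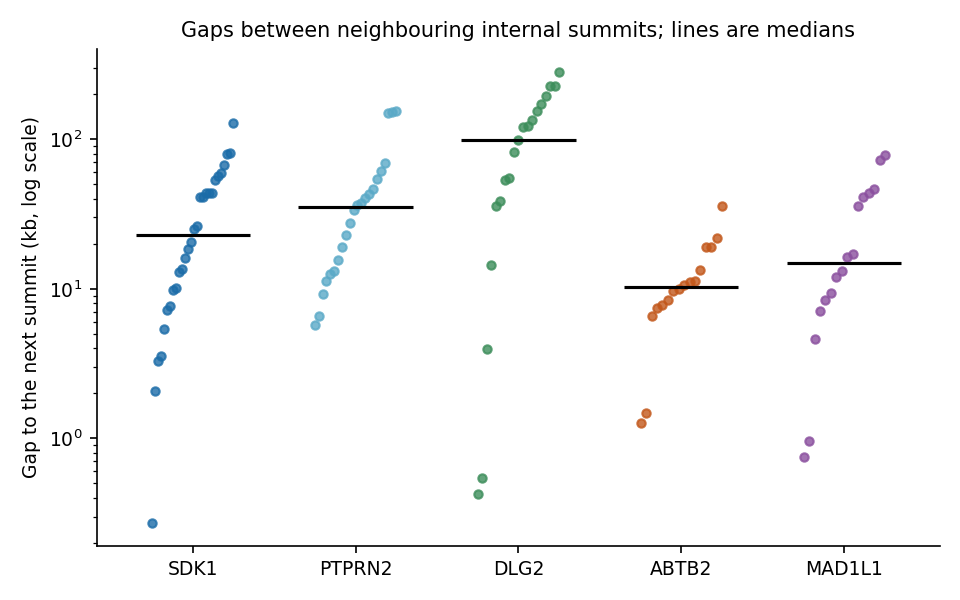
Gap in kb from each internal summit to the next (log axis) in the 5 genes, with medians as lines. Medians run from 10.3 kb in ABTB2 to 98.2 kb in DLG2.

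The starts of 4 genes could be placed, and all 4 had summits beside them on both or on the upstream side. SDK1 had summits 308 and 82 bp upstream of its start, 226 bp apart, with 13 and 12 fragments and folds of 6.12 and 5.62. DLG2 had summits 178 bp upstream and 183 bp downstream, with 8 and 6 fragments. MAD1L1 had summits 149 bp upstream and 262 bp downstream, with 16 and 11 fragments. ABTB2 had summits 392 and 95 bp upstream and 837 bp downstream, with 21, 31 and 22 fragments. The upstream summits lie outside the records and are not among the 106. Only 3 of the 106 lay within 1 kb of an end of their own gene, 1 each in DLG2, ABTB2 and MAD1L1. Within 1 kb of the start site lay a summit for 31.4% of the 35116 start sites in the RefSeq promoter table. Of the 12 start sites listed there for these genes, 7 had such a summit, 5 of them in DLG2. The outer start of SDK1 is not among the 12.

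**Figure D5:**
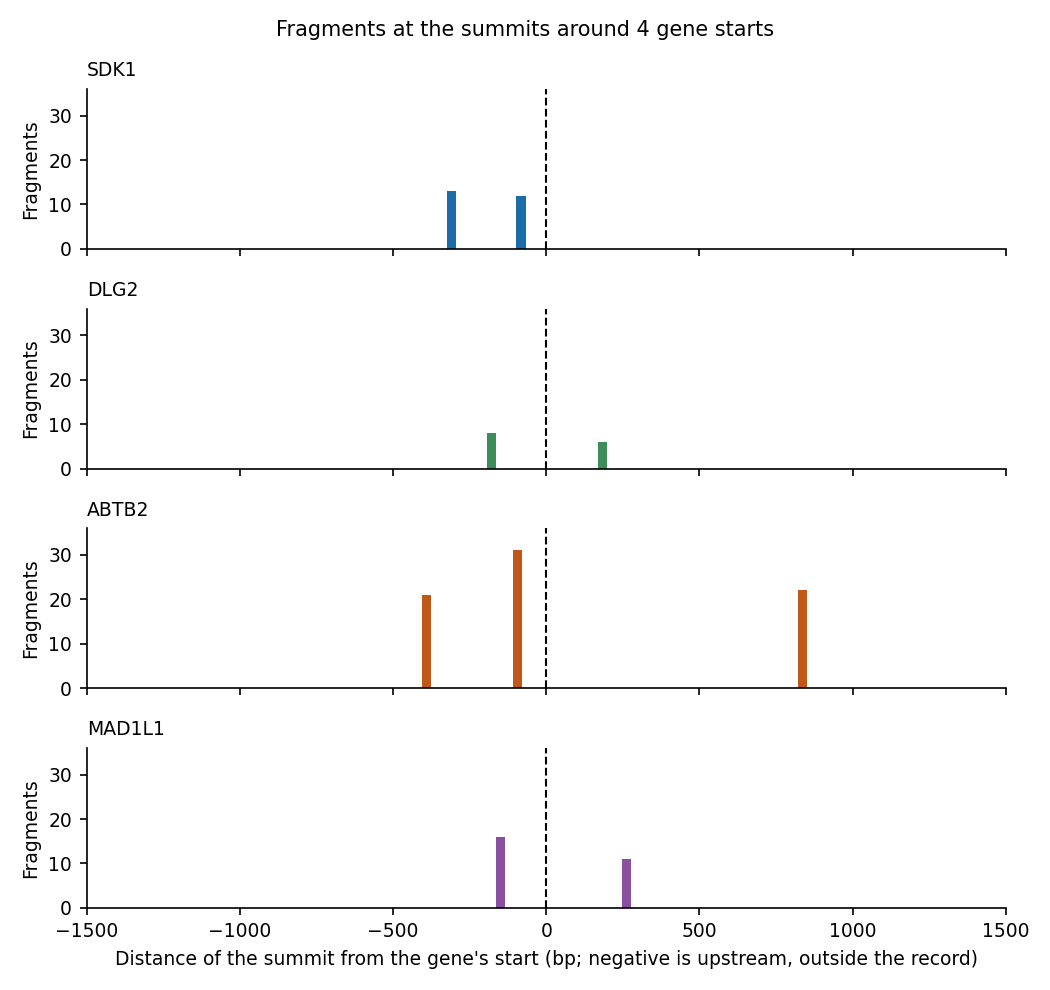
Fragments at each summit (bars) within 1.5 kb of the start of SDK1, DLG2, ABTB2 and MAD1L1 (dashed line), by distance in bp with upstream negative. Both SDK1 summits lie upstream, and the tallest bar is the ABTB2 summit 95 bp upstream with 31 fragments.

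The table lists 12 start windows for these genes, each of 300 bases on GRCh38.p14, from 250 before the start to 50 after it. It has 9 for DLG2, 1 each for ABTB2 and MAD1L1, and 1 for SDK1 at an internal start, and none was found for PTPRN2. A summit fell inside 4 of the 12 windows, against 17.7% of all windows. These 4 are shown because they are the stretches of these genes where sequence and summit can be set side by side. Capitals mark E-boxes, CANNTG, which read the same as a pattern on both strands. The windows, all on the minus strand, are chr11:34357961-34358260 for ABTB2, chr7:2232896-2233195 for MAD1L1, chr11:85628324-85628623 for the outer start of DLG2 and chr11:84437757-84438056 for an internal start of DLG2.
ABTB2: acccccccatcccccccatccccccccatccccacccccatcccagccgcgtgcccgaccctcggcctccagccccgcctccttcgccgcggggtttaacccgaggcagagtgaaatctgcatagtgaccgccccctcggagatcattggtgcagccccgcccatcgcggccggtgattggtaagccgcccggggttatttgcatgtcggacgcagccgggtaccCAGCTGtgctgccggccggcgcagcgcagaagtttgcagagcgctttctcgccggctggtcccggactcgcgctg
MAD1L1: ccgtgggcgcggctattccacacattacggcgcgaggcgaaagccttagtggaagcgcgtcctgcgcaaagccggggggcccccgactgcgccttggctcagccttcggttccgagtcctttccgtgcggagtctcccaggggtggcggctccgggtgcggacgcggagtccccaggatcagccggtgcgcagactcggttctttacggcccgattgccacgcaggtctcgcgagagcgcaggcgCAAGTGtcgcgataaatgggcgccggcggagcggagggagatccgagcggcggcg
DLG2 outer start: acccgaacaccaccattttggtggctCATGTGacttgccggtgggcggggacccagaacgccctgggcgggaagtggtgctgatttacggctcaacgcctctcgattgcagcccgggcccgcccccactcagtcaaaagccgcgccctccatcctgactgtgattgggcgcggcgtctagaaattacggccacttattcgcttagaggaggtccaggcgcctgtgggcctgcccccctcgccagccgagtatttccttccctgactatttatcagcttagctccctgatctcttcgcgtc
DLG2 internal start: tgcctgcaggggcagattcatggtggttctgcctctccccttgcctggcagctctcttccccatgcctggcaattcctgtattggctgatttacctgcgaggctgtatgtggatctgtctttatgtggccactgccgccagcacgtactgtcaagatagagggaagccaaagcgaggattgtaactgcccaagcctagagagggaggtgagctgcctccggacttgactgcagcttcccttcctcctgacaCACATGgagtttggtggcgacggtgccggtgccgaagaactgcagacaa

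Each of the 4 windows held 1 E-box, and its distance from the summit differed. Counted from 1 at the 5′ end of the window, the summit lay at base 156 in ABTB2 and its E-box, CAGCTG, began at base 226. In MAD1L1 the summit lay at base 102 and CAAGTG began at base 246. At the outer start of DLG2 the summit lay at base 73 and CATGTG began at base 27, and at the internal start they lay at base 111 and, with CACATG, at base 252. The other 8 windows of these genes, without a summit, held E-boxes too, so that all 12 had at least 1. Among all windows 68.7% had an E-box, and among those holding a summit 57.5%. The TCF/LEF words CTTTGA or CTTTGT, sought on both strands with no overlap with the E-box, were found in 2 of the 12 windows and in none of the 4 shown. All windows held them in 26.2% of cases and windows with a summit in 13.7%. These are matches of letters, not binding sites.

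The windows of ABTB2 and MAD1L1 were 69.7% and 69.3% G or C, close to the 68.0% median of all windows that hold a summit. The outer and internal windows of DLG2 had 61.0% and 56.7%, and the median of windows with no summit was 55.3%. CG dinucleotides numbered 30 in ABTB2, 42 in MAD1L1, 22 at the outer start of DLG2 and 9 at the internal one.

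Internal starts of DLG2 coincided with some of its summits. Of its 9 listed start sites, 5 had a summit within 1 kb, at 140, 178, 315, 467 and 846 bp. Over all listed start sites this share was 31.4%. The distance of 178 bp is that of the outer start, not of an internal one. The distance of 846 bp is that of a start close to the outer start, and its summit is the one 183 bp downstream of the outer start. The summit 315 bp from an internal start was the strongest of DLG2, with the fold of 5.84. In all, 4 of the 20 summits inside DLG2 lay within 1 kb of a listed start of the gene. The summit 467 bp from a start also lay 63 bp from the low-coordinate end of the non-coding record LOC124902727. The non-coding record LOC124902729, nested in DLG2, held a summit with a fold of 5.26 on 7 fragments. The remaining 4 start sites lay 22.4 to 65.0 kb from the nearest summit. The internal start of SDK1 in the table lay 5583 bp from its nearest summit.

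The flanks of 100 kb were richest in summits around ABTB2 and MAD1L1, the genes with the densest bodies. Both flanks of MAD1L1 together held 15 summits, or 7.50 per 100 kb (95% exact Poisson interval 4.20 to 12.4), and those of ABTB2 held 12, or 6.0 (3.10 to 10.5). The flanks of DLG2 held 5, all above its high-coordinate end, those of SDK1 held 4 and those of PTPRN2 held 2. Per 100 kb of flank this was 2.5 for DLG2, 2 for SDK1 and 1 for PTPRN2, against 0.920, 3.0 and 2.19 inside the genes. At 100 kb the flanks of SDK1 and PTPRN2 were thus poorer in summits than the genes, unlike their windows of up to 1 Mb. That order depended on the setting. Flanks of 50 and 200 kb held 3 and 1.5 per 100 kb for SDK1, and 1 and 2.75 for PTPRN2. At a −log10 q of at least 5, the 100 kb flanks held 1 for SDK1 and 0.5 for PTPRN2. Inside the genes the densities were then 0.517 and 0.477. With so few summits, the flank intervals of SDK1 (0.545 to 5.12 per 100 kb), PTPRN2 (0.121 to 3.61) and DLG2 (0.812 to 5.83) overlap each other and include each gene's own density.

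Gene starts beside ABTB2 carried the strongest flank peaks of that gene. NAT10, an RNA acetyltransferase, had a summit 7 bp from its start with a fold of 10.4 on 20 fragments. CAT, the enzyme catalase, had one 99 bp from its start with a fold of 10.1 on 39 fragments. CAPRIN1, an RNA-binding protein of stress granules, had one 49 bp from its start with a fold of 7.25 on 17 fragments. That summit also lies 1 bp from a start of the non-coding record LOC101929918, so it cannot be given to CAPRIN1 alone. The folds of NAT10 and CAT exceeded the highest fold inside ABTB2, 9.73.

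Beside MAD1L1 the strongest flank peak stood at a start inside the record of SNX8, a sorting nexin of endosomes. It lay 105 bp from that start with a fold of 14.5 on 71 fragments, and was the strongest summit in the 5 genes and their flanks. NUDT1, which removes oxidised nucleotides, had a summit 166 bp from a start inside its record, with 21 fragments. On the other side, a summit lay 873 bp from an end of the non-coding record LOC105375124, with a fold of 4.36 on 19 fragments. Inside MAD1L1, non-coding records also met summits. The summit 65 bp from the start of LOC105375127 had a fold of 3.39 on 13 fragments, and the summit 146 bp from that of LOC105375126 had a fold of 3.70 on 13 fragments. LOC124901573 held a summit with a fold of 4.71 on 17 fragments.

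Beside DLG2, the summit upstream of its outer start lay 22 bp from the start of TMEM126B, which encodes an assembly factor of mitochondrial complex I and is read the other way. The peak cannot be given to either gene. TMEM126A, a mitochondrial membrane protein, had a summit 92 bp from its start with a fold of 5.92 on 8 fragments. CCDC89 had one 297 bp from its start with a fold of 5.68 on 9 fragments. A summit 307 bp from an internal start of CREBZF, a bZIP transcription factor, rested on 6 fragments. A stronger summit inside CREBZF had a fold of 7.40 on 12 fragments, more than any summit inside DLG2. Beside SDK1, the antisense record SDK1-AS1 overlaps the start of the gene and held 4 summits, 2 of them inside SDK1 as well. The strongest summit of SDK1 is 1 of these 2. The nested non-coding records LOC124901577 and LOC124901576 held 1 summit of SDK1 each, with folds of 4.25 and 5.91. The flanks of PTPRN2 had no summit at a record's end. NCAPG2, whose record reaches into the upper flank, had a summit 303 bp from its start, which lies beyond that flank.

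Close relatives of these genes held at most 5 summits, most of them in shorter records. SDK2, the paralog of SDK1, held 5 in 310 kb, or 1.61 per 100 kb. PTPRN held none in 19.8 kb and ABTB1 none in 7.98 kb, while ABTB3 held 3 in 341 kb. Among relatives of DLG2, DLG1 held 1 in 257 kb, DLG3 held 1, DLG5 held 2 and DLG4 held 5 in 32.9 kb. Per 100 kb, DLG2 held 0.920 summits, against 0.389 in DLG1, 1.65 in DLG3, 1.33 in DLG5 and 15.2 in the short record of DLG4. DLG4 is a scaffold protein widely used to mark the postsynaptic density. Partners of MAD1L1 in the spindle checkpoint, MAD2L1, BUB1, BUB1B, BUB3, TTK and ZW10, held no internal summit in records of 11.2 to 60.1 kb. Over all protein-coding records, of any length, 38.8% held at least 1 summit. The checkpoint kinase TTK had a peak near an end of its record with a fold of 8.92 on 13 fragments, and BUB1B had one with a fold of 4.71 on 7 fragments. Of all listed start sites, a measure of starts only, 31.4% had a summit within 1 kb.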

How the data were processed

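The TCF4 library of CAL-27 spheres was described from 1 deposited list of 26642 peaks. The submitters' processing notes name hg38, Bowtie2 2.3.5.1, SAMtools and MACS2 2.2.7.1 without settings. Whether the IgG library served as control is not stated there. The fold in the deposited list is a ratio of fragments to local background at the summit. The −log10 p and −log10 q are the p-value and q-value as the authors deposited them, and the score that the authors deposited is 10 times that −log10 q, truncated to a whole number. The lowest −log10 q was 1.30.

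Whole fragments and background were solved from fold and p with the caller's pseudocount of 1 and a Poisson upper tail, and all 26642 peaks were solved within 0.0001. The total depth is unknown. The solution and the summit counts were tested on simulated data. Genes came from RefSeq records and start windows from the RefSeq promoter table, both GRCh38.p14, and 4 of the 5 genes matched a window. Medians of fold and gap were compared with alternatives against exact binomial intervals, and counts against a factor of 1.5.

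Named genes were the 5 genes, the 5 next by count, records ending within 100 kb of a gene with a summit within 1 kb of an end, nested records with a summit inside, and listed relatives. IGH, LOC102723945, VEPH1, PCDH15, RANBP2, SNX8, NUDT1, CREBZF, LOC101929918, SDK1-AS1 and LOC105375127 were named after their values were seen. Single summits were the 3 highest folds, the lowest, the closest neighbours and the widest gap in each gene. The members, lists and rules were chosen with earlier results of these data known. Software versions were Matplotlib 3.10.9, pandas 2.3.3, SciPy 1.17.1, NumPy 2.4.6 and Python 3.11.15.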

Additional observations from a re-analysis of the deposited data

How the results depend on the processing

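Of 91 values under other settings, 57 stayed within the interval of the reported value or within 1.5 times the reported count. The other 34 followed from stricter peak thresholds. With a −log10 q of at least 5, internal summits numbered 5 in SDK1, 5 in PTPRN2, 0 in DLG2, 9 in ABTB2 and 4 in MAD1L1, or 0.517, 0.477, 0, 4.35 and 0.959 per 100 kb in that order. With a −log10 q of at least 10 they numbered 0, 1, 0, 5 and 0, or 0, 0.0954, 0, 2.42 and 0 per 100 kb. With at least 10 fragments, SDK1 kept 6, PTPRN2 9 and DLG2 0. ABTB2 alone stayed among the 5 highest protein-coding genes under these 3 thresholds, and MAD1L1 did so with at least 10 fragments. Median folds became 5.94 in SDK1, 6.14 in PTPRN2 and 5.39 in MAD1L1 at a −log10 q of at least 5, and 5.92 in SDK1 and 5.83 in PTPRN2 with at least 10 fragments. Median gaps became 206 kb in SDK1 and 115 kb in MAD1L1 at the first of these thresholds and 178 kb in SDK1 at the second. Flank densities became 0.5 in DLG2, 3 in ABTB2 and 3.5 in MAD1L1 per 100 kb at a −log10 q of at least 5. Those of SDK1 and PTPRN2 became 1 and 0.5, which stayed within their wide intervals but no longer lay below the densities inside these genes. Weak summits are lost by construction under such thresholds. When summits within 1 kb were merged, MAD1L1 held 14 and ranked 7. DLG2 gave no median under any threshold that left it without a summit. No paired analysis was possible because each antibody has 1 library.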

Other observations

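The 5 protein-coding genes next in the count of internal summits ranged from 45014 to 811448 bp in length. RRP12, a ribosome biogenesis factor, was the shortest and held 15 summits, or 33.3 per 100 kb, with a median of 28 fragments over a median background of 5.84. TXNRD1, the cytosolic thioredoxin reductase, held 16 in 134529 bp, or 11.9 per 100 kb. TTC34 held 16, or 9.71 per 100 kb, with a median fold of 8.85 and a highest of 16.9. RPTOR, a subunit of mTORC1, held 16 in 421531 bp with a median fold of 5.14. PDE1C, a cyclic nucleotide phosphodiesterase on chromosome 7, was the longest and held 16 with a median fold of 4.79.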
